A study of Mus musculus with 10 samples.

Results

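The genes described here were 44 genes of fast-twitch and general skeletal muscle fibres, chosen by name from the 51826 genes listed in each table, of which 33120 had an exon length. They were followed in RNA-seq of inguinal white adipose tissue (iWAT), the subcutaneous fat pad of the groin, from C57BL/6 male mice in 10 libraries. The F0 males were taken at 10 to 12 weeks of age after a control diet (CD, 2 mice) or a low-protein diet (LPD, 2 mice) given from weaning. The F1 males were taken at 5 weeks of age and were the offspring of CD-fed fathers (F1 CD, 3 mice) or LPD-fed fathers (paternal LPD, pLPD, 3 mice), and all 6 had mothers fed the CD. All F1 mice were themselves fed the CD from weaning. The F1 mice of a group had different mothers. The first comparison asks how the diet that a male ate bore on these genes in its fat pad, and the second how the father's diet did. F0 and F1 mice differed in age as well as in generation and diet history, which cannot be told apart.

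A fast-twitch fibre contracts when a voltage change at its membrane releases calcium from the sarcoplasmic reticulum, calcium binds troponin on the actin filament, and myosin heads then pull on that filament. The sarcomere, the repeating unit of this machine, is held between Z-discs and centred on an M-band, with titin spanning from one to the other. The myosin heavy chain genes name the fibre types: Myh4 marks the fastest and most glycolytic type IIb fibres, Myh1 type IIx, Myh2 the more oxidative type IIa and Myh7 the slow type I fibres. Adipocytes do not build sarcomeres. In a bulk sample fewer muscle cells and less RNA per muscle cell cannot be told apart.

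The 3 fast myosin heavy chain genes lie side by side on chromosome 11 (mm10), in the order Myh2 (chr11:67171027-67197517, plus strand), Myh1 (chr11:67200052-67224575, plus strand) and Myh4 (chr11:67238029-67260446, plus strand). Their promoters are shown because the mix of these neighbours is what the results on myosin turn on. Each run is 300 bases 5′ to 3′, from 250 bases before to 50 bases after the annotated start, taken from RefSeq on GRCm38.p6. Capitals mark every match, on either strand, to an E-box (CANNTG, the element of the MyoD family of muscle regulators), to a TATA box (TATAAA) or to the MEF2 motif. A MEF2 match and a TATA match may overlap, as 1 did in the Myh1 run and 1 in the Myh4 run.
Myh2 promoter, chr11:67170777-67171076, plus strand: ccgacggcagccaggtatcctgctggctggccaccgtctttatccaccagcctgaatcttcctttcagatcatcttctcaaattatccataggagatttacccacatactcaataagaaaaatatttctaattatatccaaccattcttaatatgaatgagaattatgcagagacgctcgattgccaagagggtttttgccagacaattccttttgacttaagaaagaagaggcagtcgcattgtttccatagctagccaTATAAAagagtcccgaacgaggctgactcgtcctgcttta
Myh1 promoter, chr11:67199852-67200151, plus strand: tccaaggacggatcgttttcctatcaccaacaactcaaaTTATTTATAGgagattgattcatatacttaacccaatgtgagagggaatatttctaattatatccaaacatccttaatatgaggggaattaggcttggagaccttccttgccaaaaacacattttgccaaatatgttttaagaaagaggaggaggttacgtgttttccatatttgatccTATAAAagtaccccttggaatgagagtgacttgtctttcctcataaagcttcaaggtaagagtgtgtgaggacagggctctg
Myh4 promoter, chr11:67237562-67237861, plus strand: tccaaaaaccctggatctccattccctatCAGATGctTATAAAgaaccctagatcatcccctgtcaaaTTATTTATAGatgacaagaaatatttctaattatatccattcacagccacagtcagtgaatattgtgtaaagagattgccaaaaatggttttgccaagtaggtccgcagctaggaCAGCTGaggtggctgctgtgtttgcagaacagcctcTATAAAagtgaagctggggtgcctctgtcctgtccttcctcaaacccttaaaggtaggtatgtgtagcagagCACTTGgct
The Myh4 window held 3 E-boxes, 3 TATA matches and 1 MEF2 match, and the Myh1 window held 2 TATA matches, 1 MEF2 match and no E-box. The Myh2 window held 1 TATA match, 10 bases after the annotated start, and no match to the other motifs. Of the 44 genes, 32 had a promoter in the RefSeq table. An E-box was found in 26 of them (81.25%), against 72.3% of all 32851 promoters, and a MEF2 match in 8 (25%), against 3.19%. TATAAA was found in 6 (18.75%), against 13.6%. These are matches of letters in a window and were not measured as binding.

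Total exon reads ranged from 6351075 to 10044546 per library. The 44 genes together took 0.533 and 0.827% of them in the F0 CD mice, 0.347 and 0.257% in the F0 LPD mice, 0.0519, 0.0613 and 0.0842% in the F1 CD mice and 0.0787, 0.0362 and 0.0657% in the F1 pLPD mice. Reads of these genes were thus a small part of every library, larger in all 4 F0 than in all 6 F1 libraries. Adipoq, the defining adipocyte marker, lay between 1168 and 2368 CPM in all 10. Titin (Ttn) alone gave between 35.0% and 39.0% of these reads. Values are CPM, exon reads per 1000000 reads of a library, with libraries scaled by the trimmed mean of M values (TMM). RPKM, which also divides by exon length, is used where the levels of different genes are compared.

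**Figure D1:**
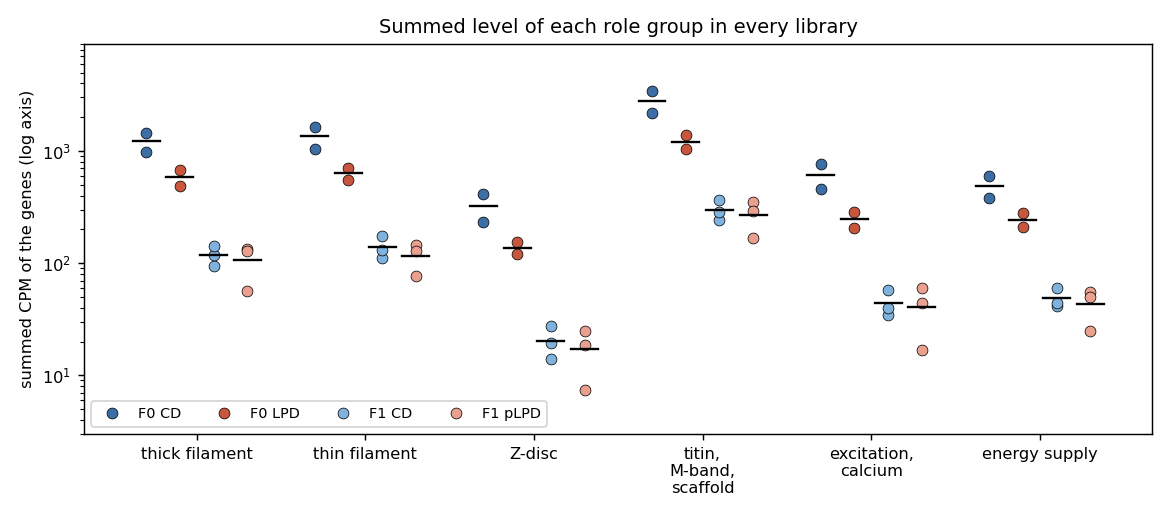
Summed CPM (log axis) of the genes in each of 6 role groups, with 1 point per library and a bar at the group mean. In every role group both F0 CD libraries lie above both F0 LPD libraries and all F1 libraries lie lower still, with the F1 CD and pLPD points interleaved.

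In F0 iWAT the muscle genes were lower in the LPD-fed mice. Of the 44 genes, 41 passed the filter on low counts and could be tested, and 23 of these 41 fell and 0 rose by edgeR's quasi-likelihood test at a Benjamini-Hochberg adjusted p under 0.05. Over all 14581 genes tested, 1.32% fell and 1.18% rose by the same rule. The log2 fold change, LPD relative to CD, was negative for all 41 genes (49.9% of all genes tested), with a median of −1.05 and a range from −3.85 to −0.15, while the median over all genes tested was 0.000352. At an unadjusted p under 0.05, 38 of the 41 were lower and 0 higher, against 8.20% and 7.53% of all genes. The values of both LPD mice lay below those of both CD mice for 39 of the 41, against 23.6% of all genes. All 41 genes were measured in the same mice, so these are not counts of independent results. No tested gene passed the filter through 1 group alone: the lowest count of any of them was 22 reads in a CD library and 18 in an LPD library. Where a value is given alone with ±, it is a log2 fold change and its SE. Myh8, the calcineurin binder Myoz3 and the muscle caveolin Cav3 were not tested, with at most 16 reads in any F0 library.

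The number of genes that passed depended on single mice. F0 CD replicate 2 had the highest value of the 4 mice for 42 of the 44 genes, and F0 LPD replicate 2 the lowest for 40. Without F0 LPD replicate 2 only 5 genes passed the threshold, and without F0 CD replicate 2 there were 13. These 5, Myh2, Mb, Myh1, Actn2 and Mybpc1, were also the 5 with the largest change, and they passed in all 4 fits that left out a mouse and under all 8 other settings tried.

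Among the thick filament genes, 3 of the 7 tested fell, and the fast myosins had fitted changes of unlike size. Myh2, the type IIa heavy chain, was at 102 and 210.4 CPM in the CD mice and 14.2 and 7.25 CPM in the LPD mice. On the log2 scale it was lower in both LPD mice by far more than the CD mice differed (log2 fold change −3.85 ± 0.38 (SE), adjusted p = 0.00373), the largest change of the 41. Myh1, the type IIx heavy chain, was at 181 and 241 CPM with CD and 43.0 and 29.1 CPM with LPD, also without overlap (log2 fold change −2.54 ± 0.19 (SE), adjusted p = 0.00190). Myh4, the type IIb heavy chain and the most abundant of them, was at 479 and 673 CPM with CD and 417 and 294 CPM with LPD. Its groups did not overlap either, but the difference missed the threshold (log2 fold change −0.69 ± 0.20 (SE), adjusted p = 0.115). Mybpc1, the slow-type myosin binding protein C, fell (log2 fold change −2.35 ± 0.27 (SE), adjusted p = 0.00669) from 42.3 and 75.9 CPM to 13.1 and 9.94 CPM, whereas for its fast counterpart Mybpc2 the change of −0.59 ± 0.20 did not pass. The light chains of fast myosin did not pass: Mylpf was at 63.0 and 95.1 CPM with CD and 57.4 and 42.8 CPM with LPD, and Myl1 overlapped between the diets, with 89.8 and 115 CPM and 104 and 80.5 CPM. Myh8, the perinatal heavy chain, had at most 4 reads in a library.

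The mix of heavy chains shows the same values on a common scale, since RPKM allows for gene length. Of the summed RPKM of 6 heavy chain genes (Myh1, Myh2, Myh3, Myh4, Myh7 and Myh8), Myh4 made up 64.0 and 61.4% in the CD mice and 88.7 and 89.6% in the LPD mice. Myh1 made up 22.9 and 20.9% with CD and 8.65 and 8.40% with LPD. Myh2 made up 11.4 and 16.2% with CD and 2.54 and 1.86% with LPD. The type IIb share was thus higher, and the IIx and IIa shares lower, in both LPD mice than in either CD mouse, although with 2 mice against 2 an exact permutation test cannot go below p = 0.33. These shares add up to 100%, so they are not independent of one another. Reads shared between the paralogs could move between them in counting: 33.7% of the 36-base words of the Myh1 transcript, 29.8% of Myh2 and 26.5% of Myh4 occurred in another gene, and 73.2%, 84.7% and 92.1% of their exon reads were counted as unique. On unique reads alone, the Myh2 to Myh4 ratio was 0.195 and 0.291 with CD and 0.0290 and 0.0223 with LPD, again without overlap.

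**Figure D2:**
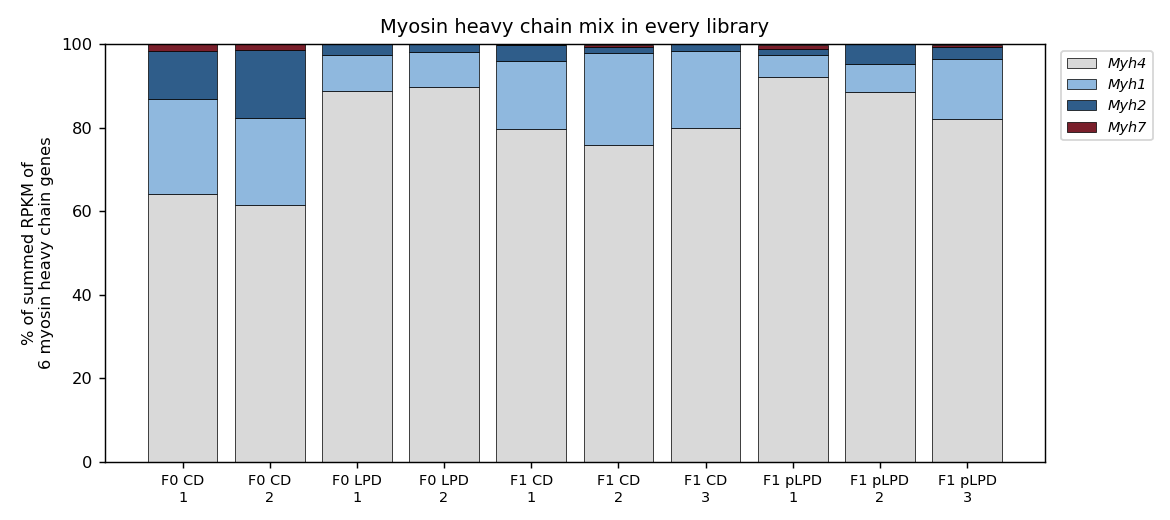
Share of each myosin heavy chain gene in the summed RPKM of 6 such genes, in percent, with 1 bar per library. Myh3 and Myh8 are left undrawn because each takes at most 0.221% of any bar. Myh4 is near 61.4% to 64.0% in the F0 CD mice and above 75% in every other library.

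Of the thin filament genes, which hold the actin track and its calcium switch, 4 of 7 fell. Acta1, skeletal actin and the gene with the highest RPKM of the 44 in F0 CD mice (112 ± 36.7 RPKM, SD, n = 2), was at 253 and 398 CPM with CD and 178 and 139 CPM with LPD (log2 fold change −1.04 ± 0.20 (SE), adjusted p = 0.0378). Only 33.4% of its exon reads were unique. Tpm2, a tropomyosin that covers the myosin sites on actin, fell (log2 fold change −1.36 ± 0.22 (SE), adjusted p = 0.0191), from 107 and 169.6 CPM to 62.5 and 44.9 CPM. Tpm1, its partner that smooth muscle and other cells also make, was at 119 and 154 CPM and 113 and 91.9 CPM, and its change of −0.41 ± 0.14 did not pass. Neb, the giant protein that runs along the thin filament, and Tnnt3, the fast troponin that binds tropomyosin, fell with −1.32 ± 0.21 and −1.24 ± 0.22. For the fast inhibitory troponin Tnni2, at 52.0 and 88.7 CPM with CD and 38.1 and 30.1 CPM with LPD, the adjusted p was 0.0514. The fast calcium-binding troponin Tnnc2 had −0.92 ± 0.22 and did not pass. All 7 genes were separated between the diets.

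Z-disc genes anchor the thin filaments, and 5 of the 8 tested fell. Actn2, the alpha-actinin of all fibre types, was at 17.6 and 27.7 CPM with CD and 4.73 and 3.04 CPM with LPD (log2 fold change −2.53 ± 0.28 (SE), adjusted p = 0.00627). Actn3, the alpha-actinin restricted to fast fibres, was at 60.1 and 109.9 CPM and 54.8 and 38.8 CPM, and its change was smaller and did not pass (log2 fold change −0.86 ± 0.26 (SE), adjusted p = 0.133). The 2 actinins were thus unlike in the size of the fitted change, but the difference between them was not tested. Tcap, which caps the end of titin, Myot, which cross-links actin, the actin-binding Xirp1 and the PDZ and LIM domain protein Ldb3 also fell, with −1.97 ± 0.28, −1.84 ± 0.29, −1.56 ± 0.27 and −0.75 ± 0.16. Xirp1 shares its strand with the overlapping gene Cx3cr1 and had 7.69% unique reads, so its count is uncertain. Myoz1, which tethers calcineurin to the Z-disc, and Xirp2, a relative of Xirp1, did not pass, with −1.14 ± 0.25 and −1.21 ± 0.27.

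The titin, M-band and scaffold genes gave 3 of 6 lower. Titin, the molecular spring of the sarcomere, was at 2059 and 3231 CPM with CD and 1287 and 951 CPM with LPD (log2 fold change −1.24 ± 0.23 (SE), adjusted p = 0.0336). Des, the desmin intermediate filament that smooth muscle also expresses, changed least of the genes that passed, from 75.0 and 93.8 CPM to 57.0 and 54.6 CPM (log2 fold change −0.60 ± 0.12 (SE), adjusted p = 0.0373). Myom1, an M-band cross-linker, fell with −1.02 ± 0.17. Its partner Myom2, with −0.99 ± 0.30, did not pass. Klhl41, a kelch protein that stabilises nebulin, had a large fitted change that did not pass (log2 fold change −1.79 ± 0.42 (SE), adjusted p = 0.0672), with 7.61 and 18.6 CPM in the CD mice and 4.62 and 2.92 CPM in the LPD mice. Smpx, a small muscle protein, had −0.40 ± 0.33.

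Of the genes of excitation and calcium handling, 5 of 7 fell. Atp2a1, the fast-fibre pump that returns calcium to the reticulum, was at 269 and 466 CPM with CD and 156 and 108 CPM with LPD (log2 fold change −1.47 ± 0.25 (SE), adjusted p = 0.0241). Ryr1, the calcium release channel, was at 71.3 and 136 CPM and 46.8 and 36.3 CPM (log2 fold change −1.32 ± 0.26 (SE), adjusted p = 0.0412). Cacna1s, the voltage sensor that opens it, and Trdn, which tethers the calcium store to it, fell with −1.16 ± 0.25 and −1.39 ± 0.21. Pvalb, the calcium buffer of the fastest fibres, fell from 53.7 and 73.3 CPM to 39.2 and 25.1 CPM (log2 fold change −0.98 ± 0.20 (SE), adjusted p = 0.0463). Casq1, the calcium-binding protein of the store, and Jph1, which joins the reticulum to the surface membrane, did not pass, with −0.75 ± 0.18 and −0.56 ± 0.26, and the diets overlapped for Jph1.

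Energy supply genes gave 3 of 6 lower, and Mb and Ckmt2, of the oxidative fibre, had the largest fitted changes of the 6. Mb, the oxygen store myoglobin, was at 34.8 and 64.5 CPM with CD and 9.46 and 6.55 CPM with LPD (log2 fold change −2.63 ± 0.30 (SE), adjusted p = 0.00669). Ckmt2, the mitochondrial creatine kinase of muscle, was at 13.5 and 24.3 CPM and 7.67 and 5.03 CPM (log2 fold change −1.57 ± 0.30 (SE), adjusted p = 0.0368). Pygm, which releases glucose from glycogen, fell with −0.93 ± 0.19. The cytosolic creatine kinase Ckm was at 192 and 309.5 CPM and 150.2 and 116 CPM and narrowly missed the threshold (log2 fold change −0.92 ± 0.21 (SE), adjusted p = 0.0605). Eno3, the muscle enolase of glycolysis, was at 59.4 and 72.1 CPM and 47.1 and 33.3 CPM (log2 fold change −0.71 ± 0.16 (SE), adjusted p = 0.0586), and the glycolytic enzyme Pgam2 had −0.71 ± 0.19. Both LPD mice were below both CD mice for all 6 genes.

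**Figure D3:**
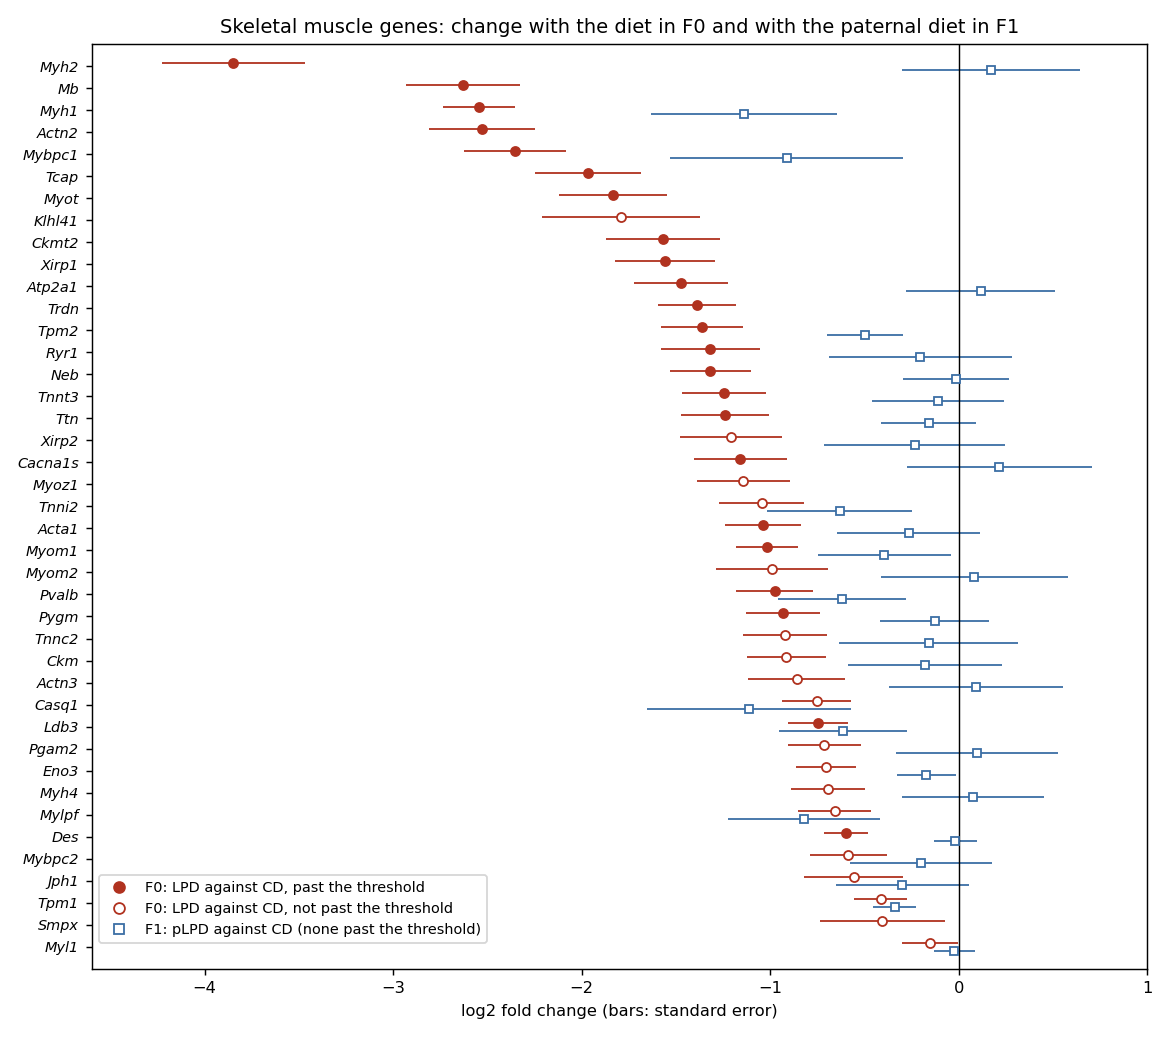
Log2 fold change with its standard error for the 41 genes tested in F0 (circles, LPD against CD, filled where the adjusted p is under 0.05) and for those also tested in F1 (squares, pLPD against CD). All 41 F0 values are below 0, from −3.85 for Myh2 to −0.15 for Myl1, and the F1 values lie between −1.14 and 0.22 with none filled.

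Other muscle and non-muscle genes were read the same way in F0. Of 14 slow-fibre genes, 13 were tested and 7 fell, with a median of −2.92 over the 13. Of the 13, 9 had under 10 reads in both LPD libraries and so reached the filter through the CD mice, among them 6 of the 7. The summed level of the list was 434 and 438 CPM with CD and 379 and 391 CPM with LPD, of which Tpm3, Atp2a2 and Myl6b, named after their values were seen, gave between 88.7% and 99.0%. The other 11 genes summed to 40.3 and 49.6 CPM with CD and to 4.31 and 3.86 CPM with LPD. Myh7, the slow heavy chain, was at 17.6 and 22.5 CPM with CD and 0.525 and 0.234 CPM with LPD (log2 fold change −5.65 ± 0.33 (SE), adjusted p = 7.58e-04), and Myl2, its light chain, fell with −5.22 ± 0.55. For Ankrd2, a stretch-responsive gene of slow muscle, the LPD mice had 0 and 1 reads, and the CD mice 17 and 26 reads. Of 50 other skeletal muscle genes, 43 were tested and 6 fell (median −1.03), the largest changes being those of Lmod2 (−2.59 ± 0.40), Synpo2l (−1.87 ± 0.37) and Nrap (−1.82 ± 0.34). The median of that list was close to that of the 41 genes, −1.05, while fewer of its genes passed. Among satellite cell and myogenic genes, 2 of 9 were tested and 0 fell, and Pax7 and Myf5, the markers of muscle stem cells, had at most 2 reads in a library. The cardiac myosin Myh6 had at most 2 reads, and 0 of 3 cardiac genes tested and 0 of 4 neuromuscular junction genes tested passed. The satellite cell and myogenic list summed to 3.92 and 6.89 CPM with CD and 2.31 and 1.64 CPM with LPD, lower in both LPD mice. These sums came from 35 and 69 reads with CD and 22 and 14 reads with LPD. The cardiac list summed to 12.4 and 11.1 CPM with CD and 14.8 and 17.9 CPM with LPD, higher in both LPD mice. Of its 3 genes tested, 2 had a positive change and 1 a negative change.

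Genes of other cells of the pad also differed between the F0 diets. All 8 smooth muscle genes had a negative change (median −0.61), of which Myh11 alone passed (log2 fold change −0.65 ± 0.10 (SE), adjusted p = 0.0164), and the summed level of the list was 390.2 and 346 CPM with CD and 273 and 279 CPM with LPD. Brown fat genes went the other way: 8 of 10 rose (median 1.61), led by Ucp1, the uncoupling protein of thermogenesis (log2 fold change 2.89 ± 0.47 (SE), adjusted p = 0.0196), Elovl3 (2.69 ± 0.42) and Otop1 (1.97 ± 0.32), and their sum was 361 and 188 CPM with CD and 989.8 and 840.0 CPM with LPD. F0 CD replicate 2 had the highest muscle sum and the lowest brown fat sum of the 4. Of the LPD mice, replicate 1 had the higher muscle sum (3489 against 2605 CPM) and also the higher brown fat sum. A link between the muscle and brown fat sums was not tested. Of 10 adipocyte genes only Retn fell (−0.78 ± 0.13), and Adipoq was at 2006 and 2199 CPM and 1849 and 2368 CPM. Of 10 lymph node genes only Ms4a1 rose (0.46 ± 0.09). None of the 6 epithelial genes had enough reads to be tested in F0, and Krt5 was at 0 reads in both CD mice. Muscle tissue dissected along with the pad and muscle cells within it cannot be told apart in these samples, and the part of tissue composition in the muscle result was not tested.

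**Figure D4:**
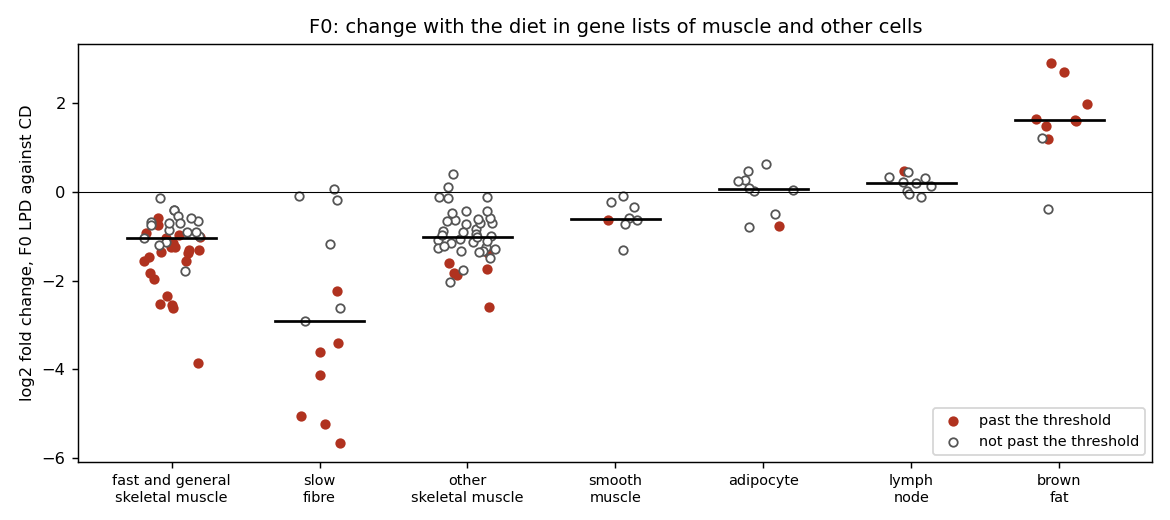
Log2 fold change of each tested gene in F0 (LPD against CD) by gene list, with a bar at the list median and filled points where the adjusted p is under 0.05. The muscle lists lie mostly below 0, and brown fat genes lie mostly above it with a median of 1.61. The slow fibre median is −2.92. Of the 13 slow fibre genes drawn, 9 had under 10 reads in both LPD libraries and reached the filter through the CD mice.

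In F1 iWAT no muscle gene that could be tested passed the threshold for the father's diet. Only 31 of the 44 had enough reads to be tested, and of these 0 fell and 0 rose by edgeR's quasi-likelihood test, against 1.02% lower and 0.142% higher over all 14049 genes tested. DESeq2 also called 0 of them. At an unadjusted p under 0.05, 3 were lower and 0 higher (8.76% and 6.57% of all genes): Myh1, Tpm1 and Tpm2. The change was negative for 24 of the 31 (48.6% of all genes), with a median of −0.18 against 0.00735 over all genes. In only 1 of the 31, Tpm1, did the groups not overlap with pLPD lower, against 10.9% of all genes. The 13 genes not tested included most Z-disc genes (Actn2, Myot, Myoz1, Myoz3, Tcap and Xirp1), together with Myh8, Klhl41, Smpx, Trdn, Cav3, Ckmt2 and Mb.

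Titin was at 195, 235 and 308 CPM in the F1 CD mice and 290.4, 122 and 246 CPM in the pLPD mice, which overlapped (log2 fold change −0.16 ± 0.25 (SE), adjusted p = 0.822). Myh4 was at 33.7, 43.3 and 60.3 CPM with CD fathers and 70.7, 16.8 and 57.5 CPM with LPD fathers (log2 fold change 0.08 ± 0.38 (SE), adjusted p = 0.951). The lowest value was in pLPD replicate 2 for both, as it was for 34 of the 44 genes, and F1 CD replicate 3 had the highest for 23. Without pLPD replicate 2 the median change turned from −0.18 to 0.13, and without F1 CD replicate 3 it was 0.0052.

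Myh1 was at 7.29, 13.2 and 14.8 CPM in the F1 CD mice and 4.29, 1.36 and 10.6 CPM in the pLPD mice, with overlap (log2 fold change −1.14 ± 0.49 (SE), adjusted p = 0.299). As a share of the summed heavy chain RPKM, Myh1 made up 16.3, 21.9 and 18.5% in the CD mice and 5.28, 6.75 and 14.3% in the pLPD mice, and here the groups did not overlap (difference of means −10.1 percentage points, two-sided exact permutation test, p = 0.1, the smallest that 3 against 3 allows). Myh4 made up 79.5, 75.9 and 79.8% and 92.0, 88.4 and 82.0%, which also did not overlap (9.05 percentage points, p = 0.1 by the same exact test). pLPD replicate 2 had 142 heavy chain reads in all, and the other F1 libraries between 320 and 570. Myh2 had 15, 8 and 11 reads in the CD mice and 9, 8 and 16 reads in the pLPD mice, which overlapped (0.17 ± 0.47). Mylpf was at 9.04, 15.5 and 18.3 CPM and 12.2, 2.71 and 9.51 CPM (log2 fold change −0.82 ± 0.40 (SE), adjusted p = 0.365), and Mybpc1 had 1 read in pLPD replicate 2.

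Of the thin filament genes, Tpm1 was at 50.2, 51.4 and 56.9 CPM in the CD mice and 48.1, 36.3 and 40.1 CPM in the pLPD mice (log2 fold change −0.34 ± 0.12 (SE), adjusted p = 0.186). Tpm2 was at 13.0, 15.6 and 17.9 CPM and 11.6, 8.001 and 13.2 CPM (log2 fold change −0.50 ± 0.20 (SE), adjusted p = 0.273). Smooth muscle also makes both, and in the smooth muscle list Acta2, its actin, fell (log2 fold change −0.74 ± 0.13 (SE), adjusted p = 0.0276), the 1 gene of 7 tested that passed, while all 7 had a negative change. The part of smooth muscle in the tropomyosin values was not tested. Acta1 was at 14.6, 21.1 and 36.8 CPM and 27.7, 8.54 and 24.2 CPM, and Tnni2 at 4.86, 5.21 and 8.20 CPM and 4.44, 1.76 and 5.61 CPM, both with overlap (−0.27 ± 0.38 and −0.63 ± 0.38).

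Elsewhere in the F1 sarcomere the groups overlapped as well. Actn3 was at 4.72, 3.93 and 6.99 CPM in the CD mice and 10.1, 2.03 and 4.52 CPM in the pLPD mice (0.09 ± 0.46), and Actn2, not tested, had 8, 12 and 21 reads and 7, 6 and 10 reads. Des was at 40.7, 41.3 and 48.3 CPM and 48.4, 40.7 and 38.8 CPM (−0.02 ± 0.12). Of the calcium genes, Atp2a1 was at 14.7, 17.6 and 28.6 CPM and 34.3, 7.87 and 24.0 CPM (0.12 ± 0.39). Ryr1 was at 3.64, 5.90 and 9.81 CPM and 7.20, 1.63 and 8.10 CPM (−0.20 ± 0.48), and Pvalb at 5.67, 6.60 and 8.06 CPM and 6.12, 2.17 and 4.99 CPM (−0.62 ± 0.34). The signs of these differences were mixed, and none passed the test. Of the energy genes, Ckm was at 10.9, 16.0 and 25.0 CPM and 22.4, 5.29 and 18.4 CPM (−0.18 ± 0.41) and Eno3 at 18.6, 18.3 and 21.4 CPM and 19.8, 13.6 and 18.2 CPM (−0.17 ± 0.16). Mb had 11, 4 and 13 reads in the CD mice and 3, 2 and 2 reads in the pLPD mice, which do not overlap but were too few for the test, and Ckmt2 had 2, 4 and 7 and 3, 1 and 3 reads.

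No gene of the other muscle lists passed in F1, with 3 slow-fibre and 19 other skeletal muscle genes tested. Among the lists of other cells, Ppargc1a, a coactivator of mitochondrial genes, was the 1 brown fat gene that rose (1.05 ± 0.18). Of 4 epithelial keratin and related genes tested, Krt18, Krt19 and Krt8 fell with −4.84 ± 0.80, −3.40 ± 0.47 and −3.82 ± 0.72, where the list summed to 14.3, 13.8 and 19.2 CPM in the CD mice and 1.07, 3.66 and 1.25 CPM in the pLPD mice. Intron reads made up between 36.0% and 37.5% of protein-coding reads in the F1 CD libraries and between 40.7% and 48.4% in the pLPD libraries, and what that did to the muscle genes was not tested.

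**Figure D5:**
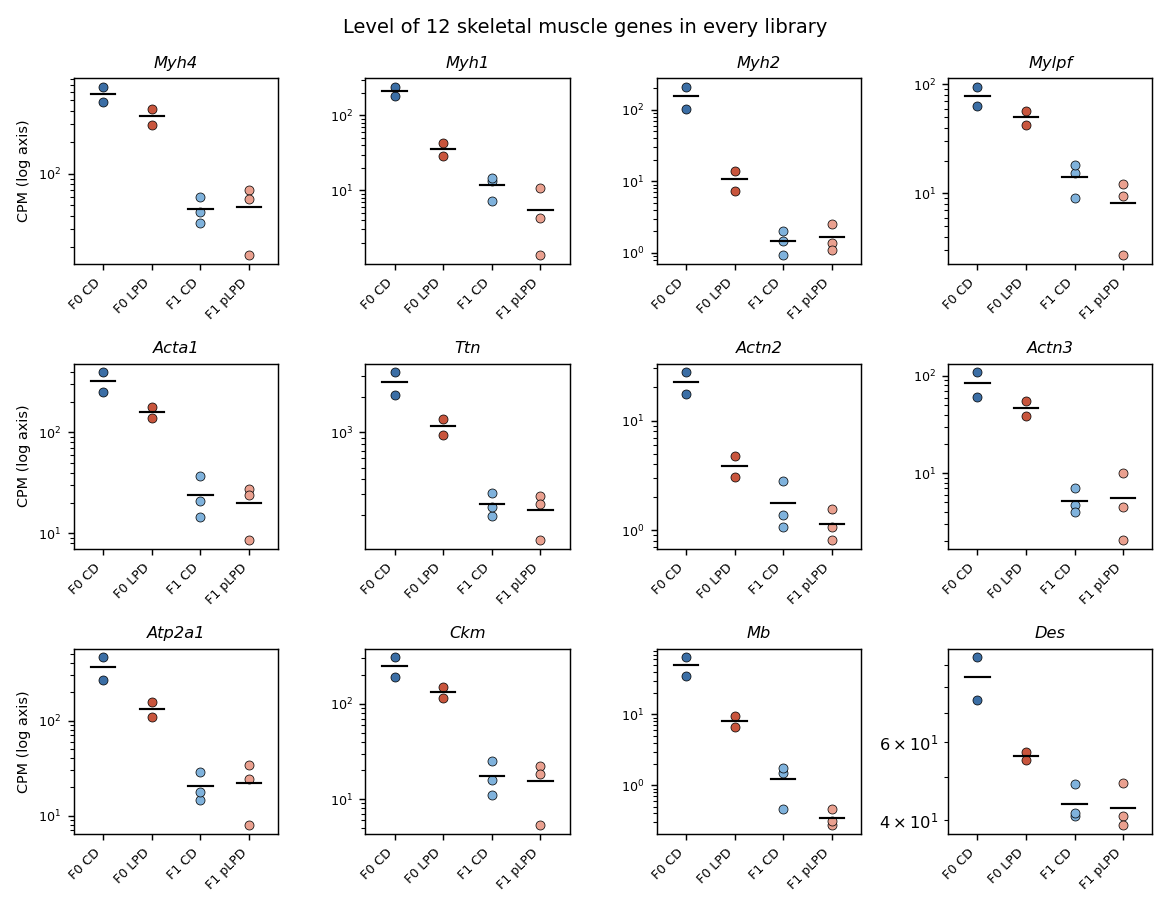
CPM (log axis, with its own range in each panel) of 12 of the genes, with 1 point per library and a bar at the group mean. For all 12 genes both F0 CD points lie above both F0 LPD points, and the F1 CD and pLPD points overlap except for Mb.

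The summed level of the 44 genes differed more between the generations than between the diets. The summed CPM of the 44 genes was 10.2 times as high in F0 CD as in F1 CD mice and 5.15 times as high in F0 LPD as in F1 pLPD mice, compared with 2.23 for F0 CD over F0 LPD and 1.13 for F1 CD over F1 pLPD. Over 43 genes, Myoz3 having 0 reads in F1, the ratio of F0 CD to F1 CD ran from 1.94 for Des and 2.58 for Tpm1 to 40.3 for Mb and 106 for Myh2. In mice of the low-protein groups the ratio of F0 LPD to F1 pLPD was 6.49 for Myh2, 3.38 for Actn2 and 1.31 for Des. These were smaller than the F0 CD to F0 LPD ratios of the same genes, 14.6, 5.82 and 1.51. For every other gene with reads in F1 pLPD the ratio between generations was the larger, as for Mb (23.0 against 6.21) and Myh1 (6.66 against 5.85). In RPKM, Acta1 ranked first in F0 CD mice, and Myl1 was the highest in F1 CD mice (8.60 ± 0.719 RPKM, SD, n = 3) next to Acta1 (7.66 ± 3.88 RPKM), from which it did not differ beyond their spread. Myl1 shares sequence with the pseudogene Mylf-ps, and 74.0% of its reads were unique. Intron reads made up 57.2% of exon and intron reads together for Myl1 over all 10 libraries, against 0.28% for Acta1. They summed to 1697 in F0 CD, 1709 in F0 LPD, 1775 in F1 CD and 1818 in F1 pLPD. The intron share was also high for Jph1 (65.3%), Trdn (54.8%) and Pgam2 (46.8%). What this did to the exon counts of these genes was not tested.

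The difference between the 2 diet effects was tested as an interaction over all 10 libraries. Of 41 genes tested, 1 passed, against 1.25% of all 15111 genes tested, and this was Myh2. Its log2 change in F1 minus that in F0 was 4.01 ± 0.84 (SE), adjusted p = 0.0393 by edgeR's quasi-likelihood test, from −3.85 in F0 and 0.17 in F1. That call was lost in 7 of the 10 fits that left out a mouse (F0 CD 2, F0 LPD 2, F1 CD 1, F1 CD 2 and each of the 3 pLPD mice), with an adjusted p from 0.0602 to 0.160 and a value that stayed between 3.40 and 4.59 in all 10. At an unadjusted p under 0.05 there were 12 of the 41 (12.5% of all genes), and 9 of the 31 that were also tested in F1. The other 10 had too few reads in F1 and entered this fit through the F0 libraries. For the other 40 genes a difference between the effect of the eaten diet in F0 and that of the father's diet in F1 was not shown. This does not mean that the 2 effects were equal. The median of the interaction over the 41 genes was 0.85 on the log2 scale.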

How the data were processed

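Total RNA of iWAT was depleted of ribosomal RNA, made into strand-marked libraries and sequenced as paired 36-base reads, per the labels. Reads were aligned to the mm10 genome with CLC Genomics Workbench by the authors, who deposited, for each of the 10 libraries, read counts per gene (total exon reads, unique exon reads, reads on the gene and on introns) and RPKM values, which the authors normalised by exon length and library size. The total exon reads were the counts used for every test, and the deposited RPKM only to compare levels between genes.

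F0 and F1 were each fitted with edgeR 4.0.16 (R 4.3.3): filterByExpr, TMM, quasi-likelihood F tests, and Benjamini-Hochberg adjustment over all genes tested, with a threshold of 0.05. The interaction was fitted over all 10 libraries. Each SE was calculated back from the F statistic of the test, as the absolute log2 change divided by the square root of F. The code was tested on simulated data. CPM used 1 TMM scaling over all libraries, which differed by at most 1.61% from that of each generation. Libraries held 6351075 to 10044546 exon reads, and the depth of a gene is given in reads where it is low. Alternatives were DESeq2 1.42.0, its size factors in edgeR, no filter, at least 10 counts in every library, 1 fit of all 4 groups, the replicate block, unique reads, reads with introns, and each library left out.

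All 44 genes were to be named, with full values for 20 of them that stand for each role and for the 5 with the largest change past the threshold in each generation and direction. Genes outside the 44 were named from 11 other lists only, at most 3 past the threshold per list and generation, and the first 2 of a list as its defining markers. One of the lists is not reported here. The 44 genes, the lists and the rule were chosen with earlier results of these data known. The mice of a group were separate animals, and p-values measure the spread between them. The study does not state whether the F1 mice of a group had different fathers. The F1 p-values therefore measure the spread between offspring, which may not be that between fathers. Promoters came from RefSeq (GRCm38.p6) and 36-base words shared between transcripts from GENCODE. No replicate pair agreed within sampling noise.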

Additional observations from a re-analysis of the deposited data

Results flagged for a closer look

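Myh2, the type IIa myosin heavy chain, was singled out because its change differed between the generations by a test of the difference itself. In F0 this was the change with the eaten LPD, and in F1 that with the father's LPD. The log2 change in F1 minus that in F0 was 4.01 ± 0.84 (SE), adjusted p = 0.0393 by edgeR's quasi-likelihood test over all 10 libraries. It rests on 8 to 16 reads per library in F1, and leaving out a mouse ended the call in 7 of 10 fits. The part of read depth in this difference was not tested.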

How the results depend on the processing

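In F0 the count of genes that fell, 23 of 41, was 38 with no filter on low counts, 38 with the replicate block, 11 with all 4 groups in 1 fit and 11 on all reads on the gene with introns, and between 22 and 27 under the other 4 settings. It ran from 5 to 32 over the fits that left out 1 mouse, in which the lone mouse was assumed to vary like the other group. The cause was not tested. The median change stayed between −1.41 and −0.73 in all 12 fits, and no gene rose in any of them. Of the 23 genes, DESeq2 called 17 among its 22. In F1, 0 genes passed except with no filter, where 2 fell (Myh1 and Mylpf), and the median ran from −0.51 to 0.13 when a mouse was left out. The interaction count of 1 was 19 with no filter, 2 with introns (Myh2 and Actn2), 0 with at least 10 counts in every library, where Myh2 was not tested, and 0 to 3 with a mouse left out. Over all genes the F0 calls went from 364 to 1343 with no filter, 1391 with the block and 175 in 1 fit, those in F1 from 164 to 798, 260 and 339, and to 335 with DESeq2, and those of the interaction from 189 to 890 with no filter and 333 with DESeq2. Whether the replicate numbers pair the mice was not settled. Deviations of same-numbered mice correlated at 0.072, 0.0010 and 0.017 in F1, where not every mouse correlated best with its own number. In F0 they correlated at 0.060, but with 2 mice a group the deviations mirror each other, so this value cannot decide it. The block left F1 at 0 and the interaction at 1.

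Small F1 differences changed sign. With the block, Myh4 was at −0.056 and Actn3 at −0.062 on the log2 scale. On unique reads Acta1 was at 0.052, and with introns Atp2a1 was at −0.0032. Leaving out 1 mouse gave ranges of −0.31 to 0.49 for Myh4, −0.24 to 0.46 for Myh2, −0.57 to 0.16 for Acta1, −0.67 to 0.50 for Actn3 and −0.41 to 0.13 for Ttn. For Des, Atp2a1, Ryr1 and Ckm they were −0.11 to 0.063, −0.36 to 0.53, −0.56 to 0.25 and −0.56 to 0.24. In F1, 13 of the 44 genes had too few reads to be tested.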
